A study of Mus musculus with 21 samples.

Results

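The genes described are 9 members of the AP-1 and ATF group of basic leucine zipper (bZIP) transcription factors: Fos, Fosb, Fosl1, Fosl2, Jun, Junb, Jund, Atf3 and Batf. They were taken by symbol from a table of 23250 genes, and all 9 were found and passed the filter on low counts that left 13468 genes for testing. AP-1 is a dimer of a Jun protein with a Fos, ATF, BATF or second Jun protein, and the dimer's make-up sets which DNA sites it binds and whether it activates or represses. Fos, Fosb, Jun and Junb are classic immediate-early genes whose mRNA is made and degraded quickly, whereas Fosl2 and Jund are known for slower changes. In macrophages Atf3 is known as an inducible brake on inflammatory genes, and Batf proteins pair with Jun proteins and with IRF factors.

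The cells were mouse macrophages grown from C57BL/6J bone marrow for 7 days with 2.5% supernatant from a GM-CSF-producing line, and the study describes all of them as lacking the mannose receptor. FcMR is a recombinant protein that joins the extracellular region of that receptor to the Fc part of human IgG1. There were 3 libraries of untreated cells at 0 h, and 3 each of cells given FcMR or an isotype control for 4, 12 or 24 h, 21 in all and 7 groups. Untreated cells were taken at 0 h only, so an effect of the isotype control and one of time in culture cannot be told apart. The age of the mice was not given in the sources used here. No label says that the 3 libraries of a group came from separate mice or cultures, so p-values measure the spread between these libraries, which may be technical.

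Libraries held 5532225 to 66729533 estimated reads. Mrc1, the gene of the mannose receptor, had 0 to 11 counts per library and at most 0.589 CPM (counts scaled to the library's total), in untreated cells too. The 8 macrophage markers were all detected and summed to 19765 to 35247 CPM over the libraries, with 25264 to 27115 CPM in FcMR 24 h and 31073 to 35247 CPM in isotype 24 h libraries. The 8 dendritic cell markers summed to 608 to 776 CPM with FcMR and 404 to 599 CPM with isotype at 4 h, to 730.0 to 928 and 653 to 745 CPM at 12 h, and to 761 to 826 and 462 to 536 CPM at 24 h. None of those 8 was at 0 in a whole group. The 6 stromal markers summed to 4.47 to 6.17 CPM with FcMR and 2.44 to 3.79 CPM with isotype at 4 h, to 11 to 17.5 and 2.19 to 2.88 CPM at 12 h, and to 8.49 to 11.1 and 0.322 to 1.37 CPM at 24 h. Of these, Col3a1 was at 0 in the isotype 24 h, FcMR 4 h and FcMR 12 h groups, Col1a2 in isotype 24 h and FcMR 4 h, Lum in isotype 4 h and 24 h, and Dcn in isotype 4 h. The 6 mast cell and basophil markers summed to 54 to 55.4 CPM in untreated cells, and at 24 h to 26.9 to 30.3 CPM with FcMR and 18 to 20.6 CPM with isotype, with none at 0 in a whole group. Single genes weighed heavily in some of these sums. Over the libraries Lyz2 of the macrophage list had 16643 to 30533 CPM and Ccr7 of the dendritic cell list 238 to 705 CPM. Pdgfrb of the stromal list had 0.107 to 14.5 CPM. A shift in such a sum need not be shared by the whole list. The part of these marker shifts in the results below was not tested. In bulk RNA, fewer cells of a type and less RNA per cell cannot be told apart.

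A pair of libraries stood apart from the rest of their groups. Isotype 4 h replicate 3 carries title number 3356 and FcMR 12 h replicate 1 carries 3355, each in the place where the order of groups would put the other. Their Fos and Atf3 levels lay nearer to the other libraries of their labelled groups, but their levels of GC-rich transcripts did not. GC tilt here is the mean log2 level of the 10% most GC-rich genes minus that of the 10% least GC-rich, each relative to the gene's mean over the 21 libraries. It was 0.636 in isotype 4 h replicate 3 against −0.84 and −1.62 in the other isotype 4 h libraries, and −0.743 in FcMR 12 h replicate 1 against 0.74 and 0.824 in the other FcMR 12 h libraries. Results that rest on these libraries are given with and without them.

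The 4 members that differed between FcMR and isotype at 1 or more times were Fos, Fosl2, Atf3 and Batf. The 250 bases before the RefSeq start of each are shown because these 4 genes carried the treatment differences. Some known inducers of AP-1 genes act through short elements there, and elements further upstream are not shown. RefSeq windows (GRCm38.p6) were found for 8 of the 9 members. Capitals mark matches, on either strand, to the NF-kB site or to TGACG, the half-site of the cyclic AMP response element.
Fos, chr12:85473640-85473889, plus strand: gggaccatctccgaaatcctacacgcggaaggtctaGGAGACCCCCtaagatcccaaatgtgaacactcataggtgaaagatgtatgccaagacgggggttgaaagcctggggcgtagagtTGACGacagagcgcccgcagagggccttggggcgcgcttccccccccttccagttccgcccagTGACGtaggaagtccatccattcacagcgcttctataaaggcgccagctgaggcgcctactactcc
Fosl2, chr5:32136222-32136471, plus strand: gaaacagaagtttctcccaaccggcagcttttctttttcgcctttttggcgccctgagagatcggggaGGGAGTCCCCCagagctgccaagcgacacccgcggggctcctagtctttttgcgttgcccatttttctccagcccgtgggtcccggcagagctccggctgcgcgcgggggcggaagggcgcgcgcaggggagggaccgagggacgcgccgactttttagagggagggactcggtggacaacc
Atf3, chr1:191183334-191183583, minus strand: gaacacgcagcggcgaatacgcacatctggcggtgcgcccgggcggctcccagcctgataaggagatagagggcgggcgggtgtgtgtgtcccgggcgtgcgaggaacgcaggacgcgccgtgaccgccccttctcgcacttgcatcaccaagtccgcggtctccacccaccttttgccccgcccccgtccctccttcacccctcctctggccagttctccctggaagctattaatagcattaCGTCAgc
Batf, chr12:85686470-85686719, plus strand: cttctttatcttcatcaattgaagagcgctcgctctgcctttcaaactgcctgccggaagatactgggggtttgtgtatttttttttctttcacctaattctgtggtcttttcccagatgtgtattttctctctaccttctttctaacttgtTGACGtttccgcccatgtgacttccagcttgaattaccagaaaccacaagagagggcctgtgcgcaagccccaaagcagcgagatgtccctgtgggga

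Counting back from −1 at the base before the start, the Fos window held an NF-kB match on the minus strand at −214 to −205 and TGACG at −129 to −125 and −66 to −62. The Fosl2 window held a pair of overlapping NF-kB matches between −182 and −172 and no TGACG. Atf3 had TGACG on the minus strand at −7 to −3, and Batf had it on the plus strand at −98 to −94. Of 32851 RefSeq windows of 300 bases, 8.46% held the NF-kB match and 20.8% held TGACG, so both are common. No window of the 8 matched members held the AP-1 site itself (TGACTCA or TGAGTCA, in 5.2% of windows), the full cyclic AMP response element (TGACG followed by TCA, 1.79%) or a CArG box (1.63%), the site of serum response factor. The windows reach 250 bases before the start, so a missing match says nothing of sites further upstream. The Fosl2, Atf3, Batf and Fosb starts used by RefSeq lie inside the span of the GENCODE gene. The Batf window ends at 85686719, past the GENCODE start at 85686669. The Junb and Jund starts lie outside that span, and the Jund window ends at 70697738, ahead of the GENCODE start at 70698949. Other starts of these genes are not covered.

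Fos was lower with FcMR than with isotype at every time. Fos encodes the founding partner of Jun in AP-1, and lies at chr12:85473890-85477273 on the plus strand (GRCm38, ENSMUSG00000021250.13, 4 exons). At 4 h its level was 9.42, 10 and 8.20 CPM with FcMR and 15.8, 14.4 and 22.7 CPM with isotype. At 12 h it was 6.24, 9.95 and 8.60 CPM with FcMR and 40.6, 34.2 and 34.7 CPM with isotype. At 24 h it was 19.6, 17.1 and 21.1 CPM with FcMR and 44.1, 38.6 and 44.2 CPM with isotype. The groups did not overlap at any of the 3 times, and the isotype libraries of 12 and 24 h were the highest of the series. The log2 fold change of FcMR over isotype was −0.93 at 4 h (SE 0.18, adjusted p = 0.00137), −2.14 at 12 h (SE 0.176, adjusted p = 1.27e-07) and −1.14 at 24 h (SE 0.169, adjusted p = 7.36e-05). At 12 h the FcMR level was thus 0.226 times the isotype level. Without the pair of libraries that stand apart, the values were −0.69 (adjusted p = 0.0028), −1.99 (adjusted p = 5.32e-08) and −1.15 (adjusted p = 1.3e-06). Fitted on the 4 h groups alone, the 4 h difference was −0.93 with adjusted p = 0.0535.

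The 2 treatments gave Fos different courses. Untreated cells had 22.8, 21.2 and 27.0 CPM. With isotype, Fos was not called different from untreated at 4 h (log2 −0.41, adjusted p = 0.0728), and it rose over untreated at 12 h (log2 0.63, adjusted p = 0.00547) and 24 h (log2 0.84, adjusted p = 0.000552). The 4 h value was −0.64 (adjusted p = 0.00625) without isotype 4 h replicate 3, the highest of its group. From 4 to 12 h Fos rose in isotype cells (log2 1.04, adjusted p = 0.000209), whereas in FcMR cells its value was −0.18 and not called. From 12 to 24 h it rose in FcMR cells (log2 1.22, adjusted p = 8.18e-05). The joint test of whether the FcMR difference changed over the 3 times passed for Fos (adjusted p = 0.0059).

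**Figure D1:**
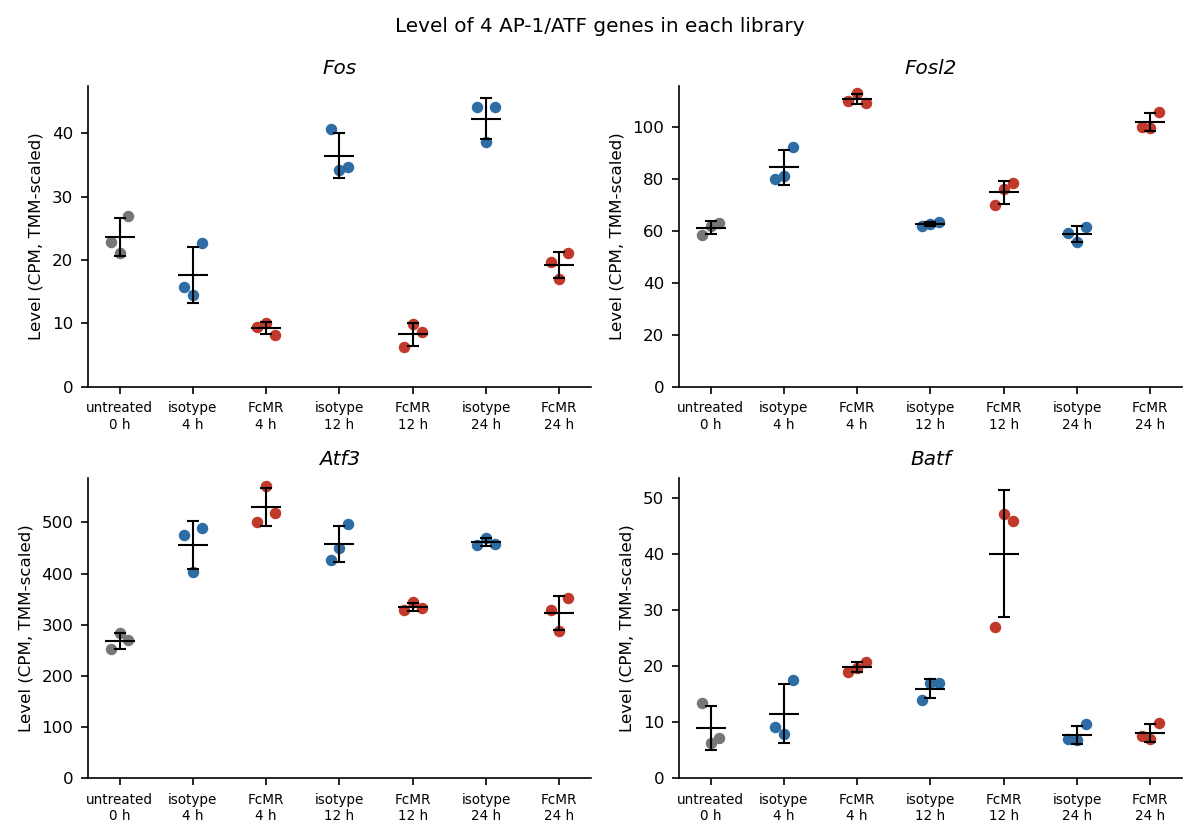
Level in CPM (TMM-scaled, linear axes from 0) of Fos, Fosl2, Atf3 and Batf in each of the 21 libraries, by group; points are libraries, and the bar with whiskers is the mean ± SD (n = 3). FcMR libraries lie below isotype libraries for Fos at every time and above them for Fosl2, Atf3 lies below at 12 and 24 h, and Batf peaks in FcMR 12 h.

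Fosl2 moved the other way. Fosl2 encodes Fra-2, a Fos family member that lacks the strong activation region of Fos, and lies at chr5:32135801-32157842 on the plus strand (ENSMUSG00000029135.10, 4 exons). With FcMR it was 110, 113 and 109 CPM at 4 h against 80.1, 81.4 and 92.3 CPM with isotype. At 12 h it was 70.1, 76.3 and 78.5 CPM against 62.0, 62.9 and 63.6 CPM, and at 24 h 100.2, 99.9 and 106 CPM against 59.2, 55.6 and 61.7 CPM. All 3 FcMR libraries lay above all 3 isotype libraries at each time. The log2 fold changes were 0.39 (SE 0.0697, adjusted p = 0.000734), 0.25 (SE 0.0693, adjusted p = 0.0161) and 0.79 (SE 0.0701, adjusted p = 1.82e-07), and the change over time passed the joint test (adjusted p = 0.00329).

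The 12 h difference of Fosl2 is the least secure of the 3. It was 0.24 (adjusted p = 0.0544) without FcMR 12 h replicate 2, 0.22 (adjusted p = 0.0757) without FcMR 12 h replicate 3 and 0.24 (adjusted p = 0.0625) without isotype 12 h replicate 1. It also missed the threshold with no filter on low counts (adjusted p = 0.0569), with the authors' factors (adjusted p = 0.0547) and when only the groups compared were fitted (adjusted p = 0.0919). In that last fit the 4 h difference had adjusted p = 0.0666. Untreated cells had 58.5, 62.1 and 63.3 CPM of Fosl2, and isotype cells were above them at 4 h (log2 0.47, adjusted p = 4.49e-05) but not called different at 12 h (log2 0.04) or 24 h (log2 −0.06). In both treatments Fosl2 fell from 4 to 12 h, by 0.56 with FcMR (adjusted p = 5.29e-06) and by 0.43 with isotype on the log2 scale (adjusted p = 0.000183), and with FcMR it rose again from 12 to 24 h (log2 0.44, adjusted p = 0.000173).

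Because Fos and Fosl2 moved in opposite directions, the make-up of the Fos family changed. Levels were compared between genes per kb of each gene's longest protein-coding transcript, 6537 bases for Fosl2 and 2108 for Fos. The log2 ratio of Fosl2 to Fos within a library does not depend on how libraries are scaled. In untreated cells the ratio was −0.28, −0.08 and −0.40, that is, slightly more Fos than Fosl2 per kb. At 4 h it was 1.92, 1.86 and 2.11 with FcMR and 0.71, 0.86 and 0.39 with isotype. At 12 h it was 1.86, 1.31 and 1.56 with FcMR and −1.02, −0.75 and −0.76 with isotype. At 24 h it was 0.72, 0.92 and 0.70 with FcMR and −1.21, −1.11 and −1.15 with isotype. Per kb, Fosl2 exceeded Fos in all 9 FcMR libraries and in the isotype libraries of 4 h. Fos exceeded Fosl2 per kb in the 6 isotype libraries of 12 and 24 h. In CPM, with no division by length, Fosl2 was above Fos in all 21 libraries. Which gene is higher thus rests on the lengths used, whereas differences of the ratio between groups do not. The FcMR minus isotype difference was 1.31, 2.42 and 1.93 on the log2 scale, and it is given as a description, since the ratio was formed after both genes had been seen to move.

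As a share of the 4 Fos genes per kb, Fosl2 made up 33.3% to 38.5% in untreated cells. With FcMR its share was 73.5% to 77.0% at 4 h, 64.8% to 75.6% at 12 h and 58.3% to 63.1% at 24 h. With isotype it was 52.1% to 61.3%, 31.9% to 35.1% and 29.0% to 30.7%. Fosb supplied 15.8% to 17.2% of the family in untreated cells and at most 1.56% in any treated library. Fosl1 held 3.12% to 8.84%.

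**Figure D2:**
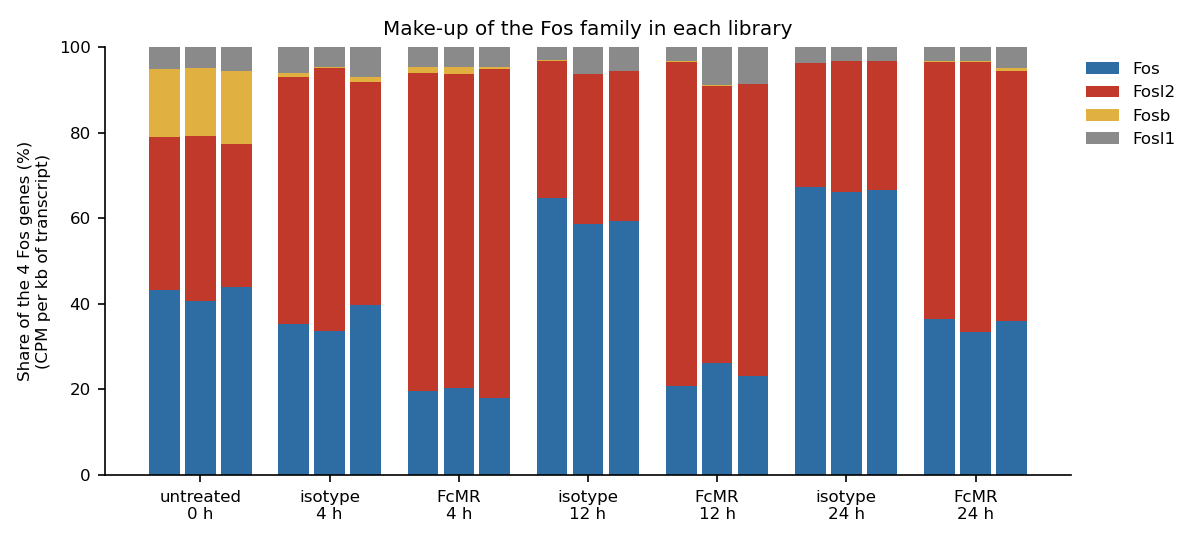
Share of Fos, Fosl2, Fosb and Fosl1 (stacked bars, percent of their summed CPM per kb of the longest protein-coding transcript) in each of the 21 libraries, 3 bars per group. Which gene is the largest part depends on the transcript lengths used. Fosl2 is the largest part in the FcMR libraries and in the isotype libraries of 4 h. Fos is the largest part in the isotype libraries of 12 and 24 h, and Fosb is visible mainly in untreated cells.

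Fosb, an immediate-early Fos family gene (chr7:19302696-19310051, minus strand, ENSMUSG00000003545.3), was high in untreated cells and close to nothing afterwards. Its counts were 154, 327 and 231 in the untreated libraries. They were 4, 1 and 10 with isotype and 16, 37 and 2 with FcMR at 4 h, 3, 1 and 6 with isotype and 1, 1 and 0 with FcMR at 12 h, and 1, 0 and 0 with isotype and 3, 3 and 7 with FcMR at 24 h. Fosb passed the filter on low counts through the untreated group, so its difference from that group is given as levels, with no test. In CPM it stood at 15, 15 and 18.9 in untreated cells and at 0.18 to 1.16 in isotype 4 h cells. At 12 and 24 h most libraries had 3 counts or fewer, and no fold is given. FcMR and isotype were not called different at any time. At 24 h the adjusted p was 0.103, and 0.0267 without FcMR 24 h replicate 2. Between 4 and 12 h the calls of a fall (adjusted p = 0.000402 with FcMR and 0.0171 with isotype) rest on these few counts, and the isotype call was lost without isotype 4 h replicate 3 (adjusted p = 0.149) or isotype 12 h replicate 3 (adjusted p = 0.116).

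Untreated cells also had the highest summed level of 10 neutrophil and granulocyte precursor markers, 1426 to 1660 CPM, against 204 to 239 CPM in isotype 24 h cells. Elane was at 0 in all FcMR 24 h libraries, and no other marker of that list was at 0 in a whole group. The part of these cells in the lower Fosb level was not tested. Fosl1, which encodes Fra-1 (chr19:5447547-5455946, plus strand, ENSMUSG00000024912.5), was low throughout, at 0.881 to 3.59 CPM, and was not called in any comparison. With the GC correction it was called lower in isotype cells at 12 h than at 4 h (log2 −0.76, adjusted p = 0.0277).

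Atf3, a stress-induced ATF gene that can repress inflammatory genes, had the highest level of the 9 per kb of transcript in every group, with group means of 135 to 267 CPM per kb. It lies at chr1:191170296-191218039 on the minus strand (ENSMUSG00000026628.13), where the small gene Gm24748 overlaps it on the other strand. Untreated cells had 253, 284 and 269 CPM. At 4 h Atf3 was 501, 572 and 519 CPM with FcMR and 475, 403 and 489 CPM with isotype. At 12 h it was 330, 344 and 332 CPM with FcMR and 427, 450.0 and 496 CPM with isotype, and at 24 h 328, 288 and 353 CPM with FcMR and 455, 470.0 and 458 CPM with isotype. FcMR libraries were the higher ones at 4 h and the lower ones at 12 and 24 h, with no overlap at any time.

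The FcMR difference of Atf3 was −0.45 at 12 h (SE 0.0903, adjusted p = 0.00171) and −0.51 at 24 h (SE 0.0904, adjusted p = 0.000401). At 4 h the value was 0.22 (SE 0.0902) and missed the threshold (adjusted p = 0.107), and it passed with other scalings: 0.28 with RLE size factors (adjusted p = 0.0412) and 0.33 with the authors' factors (adjusted p = 0.031). The joint test found that the difference changed over time (adjusted p = 0.00133). With isotype, Atf3 was higher than in untreated cells by nearly the same log2 value at 4, 12 and 24 h, 0.76, 0.77 and 0.78 (adjusted p = 3.12e-06, 2.2e-06 and 1.89e-06). With FcMR it fell from 4 to 12 h by 0.66 on the log2 scale (adjusted p = 1.67e-05).

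Batf, which pairs with Jun proteins and with IRF4 or IRF8 (chr12:85686669-85709087, plus strand, ENSMUSG00000034266.6, 3 exons), peaked in FcMR cells at 12 h. Its level was 13.5, 6.30 and 7.27 CPM in untreated cells. At 4 h it was 18.9, 19.7 and 20.7 CPM with FcMR and 9.19, 7.94 and 17.5 CPM with isotype. At 12 h it was 27.0, 47.1 and 45.9 CPM with FcMR and 14, 17 and 17 CPM with isotype. By 24 h it was 7.50, 6.95 and 9.87 CPM with FcMR and 6.96, 6.75 and 9.65 CPM with isotype, and the groups overlapped.

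At 12 h Batf was 2.5 times as high with FcMR as with isotype (log2 1.32, SE 0.288, adjusted p = 0.00318), and without the pair of libraries that stand apart the log2 value was 1.54 (adjusted p = 8.89e-05). At 4 h the value was 0.75 and missed the threshold (adjusted p = 0.0986), and it was 1.20 (adjusted p = 0.0107) without isotype 4 h replicate 3. At 24 h the log2 difference was 0.05, with a normal 95% interval of −0.57 to 0.67. In FcMR cells Batf rose from 4 to 12 h (log2 1.02, adjusted p = 0.00889) and fell by 2.32 from 12 to 24 h (adjusted p = 3.06e-05). The joint test over the 3 times did not pass (adjusted p = 0.138), and passed without isotype 4 h replicate 3 (adjusted p = 0.0428) or without FcMR 12 h replicate 1 (adjusted p = 0.0488).

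The smaller changes of Batf in isotype cells lay close to the threshold. It was above untreated at 12 h (log2 0.85, adjusted p = 0.0298). That value was 0.63 without untreated replicate 2 (adjusted p = 0.148), 0.72 without untreated replicate 3 (adjusted p = 0.113), 0.80 without isotype 12 h replicate 2 (adjusted p = 0.0704) and 0.79 without isotype 12 h replicate 3 (adjusted p = 0.085). It fell from 12 to 24 h by 1.04 (adjusted p = 0.0265). Without isotype 12 h replicate 2 or 3 that value was −1 and −0.99 (adjusted p = 0.0704 and 0.0831), and without isotype 24 h replicate 1 or 2 it was −0.97 and −0.95 (adjusted p = 0.101 and 0.104). With fewer libraries these values missed the threshold at nearly the same size, apart from those without untreated replicate 2 or 3. From 4 to 12 h the value was called only without isotype 4 h replicate 3 (log2 0.89, adjusted p = 0.0239) or without both libraries that stand apart (log2 0.89, adjusted p = 0.0105) among the fits that leave libraries out.

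The 3 Jun genes, which supply the Jun side of the dimer, showed no called difference between FcMR and isotype at any time, and they varied widely between libraries of a group. Jun, the strongest activator of the 3, lies at chr4:95049034-95052222 on the minus strand (ENSMUSG00000052684.4). Junb, which can oppose Jun, lies at chr8:84974484-84978718 on the minus strand (ENSMUSG00000052837.6), and Jund, a more constant member, at chr8:70698949-70700616 on the plus strand (ENSMUSG00000071076.6). Each has a single exon and shares its place with a gene on the other strand (Junos, Prdx2 and Gm11175, in that order). Whether strand was used in quantification was not given in the sources used here, so reads of the 2 strands cannot be told apart.

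Jun was 28.1, 27.8 and 24.2 CPM with FcMR and 29.2, 23.8 and 75.4 CPM with isotype at 4 h. It was 22.6, 51.5 and 52.5 CPM with FcMR and 47.4, 65.6 and 76.5 CPM with isotype at 12 h, and 27.9, 24.0 and 34.3 CPM with FcMR and 44.2, 43.3 and 45.1 CPM with isotype at 24 h. At 24 h all FcMR libraries lay below all isotype libraries, and at 4 and 12 h the groups overlapped. The log2 differences were −0.69 (adjusted p = 0.224), −0.58 (adjusted p = 0.34) and −0.63 (adjusted p = 0.268). Without the pair of libraries that stand apart, the 4 h value was 0.02 (adjusted p = 0.97) and the 12 h value −0.28 (adjusted p = 0.479), both smaller than with all libraries. The 24 h value passed when only the groups compared were fitted (−0.64, adjusted p = 0.0215) and without that pair (−0.64, adjusted p = 0.0271).

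Junb was 154, 27.3 and 82.1 CPM in untreated cells. At 4 h it was 48.6, 51.5 and 37.5 CPM with FcMR and 16.9, 6.67 and 211 CPM with isotype, and at 12 h 13.6, 156 and 177 CPM with FcMR and 71.2, 131 and 149 CPM with isotype. At 24 h it was 13.5, 9.26 and 29.7 CPM with FcMR and 12.9, 14.9 and 15.2 CPM with isotype, the lowest group mean of the series. The extremes of the 4 and 12 h groups, 211 and 13.6 CPM, came from the libraries that stand apart. The log2 difference at 4 h was −0.78 (SE 0.937, adjusted p = 0.643), and it was 1.94 (adjusted p = 0.0347) without that pair, so its sign depends on them. At 12 and 24 h the values were −0.02 and 0.25, with SE of 0.913 and 1.02, and differences of several-fold would not have been detectable.

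Jund was 74.8, 27.6 and 44.8 CPM in untreated cells, 8.47, 11 and 56.3 CPM in isotype 4 h cells and 18.2, 17.5 and 17.5 CPM in FcMR 4 h cells. It was 22.9, 34.3 and 49.8 CPM with isotype and 9.03, 32.0 and 35.6 CPM with FcMR at 12 h, and 16.7, 12.6 and 15.3 CPM with isotype and 12.5, 10.5 and 14.4 CPM with FcMR at 24 h. FcMR and isotype overlapped at all 3 times, at 4 h only through isotype 4 h replicate 3. The log2 differences were −0.54, −0.49 and −0.27 (adjusted p = 0.594, 0.673 and 0.821), and without the pair of libraries that stand apart they were 0.87, −0.09 and −0.28 (adjusted p = 0.107, 0.931 and 0.58), so the sign at 4 h depends on them. Against untreated cells, isotype cells at 24 h were lower in Junb (log2 −2.61, adjusted p = 0.0468) and Jund (log2 −1.71, adjusted p = 0.0252). The Junb value shrank to −1.93 without untreated replicate 1 (adjusted p = 0.174). It missed the threshold at nearly the same size without untreated replicate 3 (−2.66, adjusted p = 0.0735) and without isotype 24 h replicate 1, 2 or 3 (−2.54, −2.65 and −2.66; adjusted p = 0.118, 0.108 and 0.105). The Jund value shrank to −1.28 without untreated replicate 1 (adjusted p = 0.12), and missed the threshold at −1.81, −1.61 and −1.73 without isotype 24 h replicate 1, 2 or 3 (adjusted p = 0.0554, 0.0826 and 0.0637).

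Several changes of the Jun genes passed once a single library was left out. Without isotype 4 h replicate 3, isotype cells at 4 h were below untreated cells in Jun (log2 −1.5, adjusted p = 0.00136), Junb (−2.86, adjusted p = 0.0177) and Jund (−2.33, adjusted p = 0.00186), and they rose from 4 to 12 h by 1.25, 3.28 and 1.89 (adjusted p = 0.00465, 0.00811 and 0.0069). With all libraries, the values against untreated were −0.80, −0.15 and −0.92 and none was called. The isotype 4 h libraries left had a GC tilt of −0.84 and −1.62. It was 0.0382 to 0.806 in untreated and 0.601 to 0.841 in isotype 12 h libraries. After the GC correction, Jun was 35.5 and 36.8 CPM in those isotype 4 h libraries, against 39.8 to 60.4 CPM in isotype 12 h cells. Junb was 27.1 and 18.2 against 47.6 to 80.2 CPM, and Jund 13.8 and 31.2 against 15.1 to 26.2 CPM, with overlap for Jund only. Without FcMR 12 h replicate 1, Jun rose from 4 to 12 h with FcMR (log2 0.92, adjusted p = 0.0341) and Junb fell by 3.26 from 12 to 24 h (adjusted p = 0.0139). Without FcMR 24 h replicate 3, Junb fell over that interval by 3.38 (adjusted p = 0.0478). The FcMR 12 h libraries other than replicate 1 had a tilt of 0.74 and 0.824. It was −0.499 to −0.163 in FcMR 4 h and −1.33 to 0.412 in FcMR 24 h libraries. The part of GC tilt in any of these changes was not tested.

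The levels of the Jun genes moved with the GC tilt of the libraries. Transcript GC content was 55.5% for Jun, 62.6% for Junb and 67.1% for Jund, the last pair above 99.1% and 99.9% of tested genes, against 51.9% for Fos, 53.1% for Fosl2 and 52.2% for Atf3. Fosl1 (58.5%), Batf (56.6%) and Fosb (56%) lay above Jun. In the 6 libraries with title numbers 3350 to 3355 the tilt was −1.62 to −0.163, and in the 6 with numbers 3356 to 3361 it was 0.601 to 0.841. Between these sets of libraries, Junb was 6.67 to 51.5 against 71.2 to 211 CPM, Jun 22.6 to 29.2 against 47.4 to 76.5 CPM, and Jund 8.47 to 18.2 against 22.9 to 56.3 CPM, without overlap. This split was described after the values had been seen, and it is unevenly spread over treatments and times. The lowest Junb library was the one of lowest tilt in 7 of 7 groups, and the highest was the one of highest tilt in 6 of 7.

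The spread within groups also differed between members. The within-group SD of log2 CPM was 1.38 for Junb, 0.768 for Jund and 0.484 for Jun, against a median of 0.239 over all tested genes. It was 0.0674 for Fosl2, 0.104 for Atf3 and 0.215 for Fos. After a correction of each library for transcript GC, the SD was 0.816 for Junb, 0.372 for Jund and 0.284 for Jun. With the correction it was 0.162 for Fos and 0.0792 for Atf3, and it rose to 0.0948 for Fosl2. In that fit Jun was lower with FcMR at 4 h (log2 −0.70, adjusted p = 0.0224) and Junb and Jund were not called at any time. The same correction left Fos at −0.94, −2.11 and −1.13, Fosl2 at 0.33, 0.34 and 0.85, and Atf3 at −0.39 and −0.49 at 12 and 24 h, all called. With it the 4 h values of Atf3 (0.18, adjusted p = 0.0499) and Batf (0.69, adjusted p = 0.00422) passed too. What sets the tilt, and the part of the tilt in the spread of the Jun genes, was not tested.

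**Figure D3:**
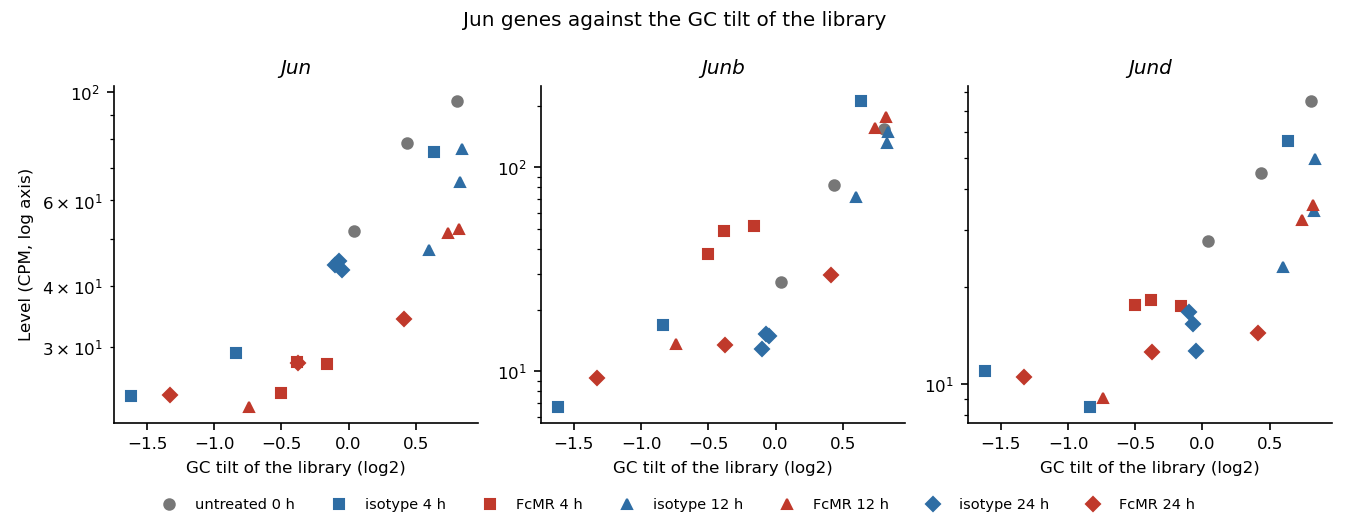
Level of Jun, Junb and Jund (CPM, log axis) in each of the 21 libraries against the GC tilt of the library (log2), with the marker shape giving the time and the colour giving untreated, isotype or FcMR. Levels are low at negative tilt and high above 0.6, and isotype 4 h replicate 3 and FcMR 12 h replicate 1 sit with other groups.

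Counted over the 9 members, 2 were called between FcMR and isotype at 4 h (Fosl2 higher, Fos lower), against a background of 17.7% of all tested genes, with 8.62% higher and 9.13% lower. At 12 h 4 were called (Fosl2 and Batf higher, Fos and Atf3 lower; background 16.1%, with 8.61% higher and 7.49% lower), and at 24 h 3 (Fosl2 higher, Fos and Atf3 lower; background 20.9%, with 11.4% higher and 9.44% lower). The change of the FcMR difference over time was called for 3 members against 11% of all genes. Isotype against untreated gave 3, 4 and 5 calls at 4, 12 and 24 h, where 35.6%, 41.6% and 42.2% of all genes were called. Fosb is among them each time, but it passed the filter through the untreated group, so its calls carry no weight there. In FcMR cells 4 members were called from 4 to 12 h (background 40.3%) and 3 from 12 to 24 h (background 23.8%), and in isotype cells 3 (background 35.2%) and 1 (background 16.7%). With 9 genes, several of these shares lie near the background, and the members differ in which of them moved and in which direction. FcMR against isotype and isotype against untreated share the isotype libraries.

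**Figure D4:**
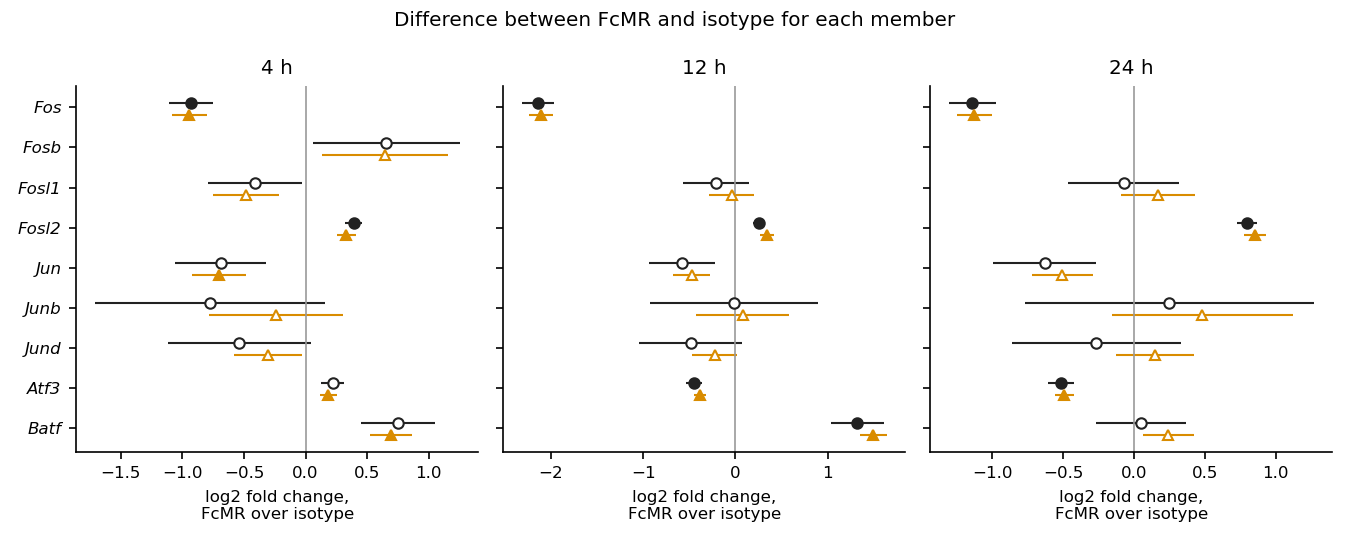
Log2 fold change of FcMR over isotype for each member at 4, 12 and 24 h, as the estimate ± SE; circles are the fit on all 21 libraries, triangles the same fit with the GC correction, and filled symbols have an adjusted p under 0.05. Fosb is left out at 12 and 24 h, where its counts are near 0; the bar of Junb is the widest in each panel and crosses 0.

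Other genes of the bZIP family, not all of them partners of these proteins, were measured in the same fit. Of 28 such genes, 5 were higher and 4 lower with FcMR at 4 h, 2 higher and 4 lower at 12 h, and 4 higher and 5 lower at 24 h. The medians were 0.01, −0.01 and 0.03 on the log2 scale beside −0.07, −0.02 and 0.01 over all tested genes. Of all tested genes, 17.7%, 16.1% and 20.9% were called. Maf, another bZIP factor, was lower at 12 h (log2 −0.66, adjusted p = 0.024) and 24 h (log2 −1.63, adjusted p = 8.02e-06), and Cebpa, a myeloid differentiation factor, at 4, 12 and 24 h (log2 −1.30, −0.79 and −0.79). Batf2, a Batf relative induced by interferon, was higher at 4, 12 and 24 h (log2 1.62, 1.02 and 0.77; adjusted p = 7.17e-05, 0.0026 and 0.031). Jdp2, a repressor that pairs with Jun, was higher at 4 h (log2 1.11, adjusted p = 0.0337), Maff at 4, 12 and 24 h (log2 0.71, 0.78 and 0.70) and Crem, a cyclic AMP response gene, at 24 h (log2 0.84).

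Upstream of AP-1 lie the MAP kinase cascades and the ternary complex factors. Of 31 tested genes of that list, 5 were higher and 2 lower at 4 h, 5 higher and 4 lower at 12 h, and 6 higher and 3 lower at 24 h (medians 0.04, −0.01 and −0.09). Over all tested genes 17.7%, 16.1% and 20.9% were called, with medians of −0.07, −0.02 and 0.01. Map3k8, the kinase that links Toll-like receptors to ERK, was 75.7 ± 2.24 CPM with FcMR and 41.6 ± 2.38 CPM with isotype at 4 h (SD, n = 3; log2 0.87, adjusted p = 1.23e-05), and it was also higher at 12 h (log2 0.34). Nfkb1, whose p105 product holds that kinase, was higher at 4, 12 and 24 h (log2 0.93, 0.59 and 0.40), as were the stress kinase gene Map3k5 (log2 0.59, 1.25 and 1.12) and Mapkapk2, which acts below p38 (log2 0.70, 0.57 and 0.72). Mef2c, a factor that acts on the Jun promoter, was lower at 12 and 24 h (log2 −0.96 and −1.54), as was Rps6ka3, an ERK-activated kinase (log2 −0.54 and −0.56). Map3k1 was lower at 4 and 12 h (log2 −0.44 and −0.52) and Map3k3 at 4 h (log2 −0.30).

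Of 19 other immediate-early genes, 5 were higher and 1 lower with FcMR at 4 h, 2 higher and 6 lower at 12 h, and 3 higher and 2 lower at 24 h (medians 0.34, −0.14 and 0.00). In these comparisons 17.7%, 16.1% and 20.9% of all tested genes were called, with medians of −0.07, −0.02 and 0.01. Nr4a3, a nuclear receptor, and Ppp1r15a, a phosphatase subunit of the stress response, were higher at 4 h (log2 1.16 and 1.11). Nr4a2 and Dusp1, the latter a phosphatase that switches off MAP kinases, were higher at 12 h (log2 1.37 and 0.58) and 24 h (log2 1.5 and 1.13). Myc was lower at 12 and 24 h (log2 −1.75 and −1.91), Egr3 at 12 h (log2 −1.53) and Egr2 at 4, 12 and 24 h (log2 −0.59, −0.76 and −0.45). Between isotype and untreated cells, 7, 11 and 16 genes of this list were lower and 1, 2 and 1 higher at 4, 12 and 24 h, beside 35.6%, 41.6% and 42.2% of all genes called, with medians of −0.33, −0.77 and −1.05 beside 0.00, 0.03 and −0.04 over all tested genes.

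Of 25 tested genes known as AP-1 targets in other settings, 13 were higher and 1 lower with FcMR at 4 h, 12 higher and 4 lower at 12 h, and 13 higher and 7 lower at 24 h (medians 0.66, 0.40 and 0.45). All tested genes had medians of −0.07, −0.02 and 0.01, with 17.7%, 16.1% and 20.9% called. This list, like the others, was chosen with earlier results of these data known. Its counts and medians beside all genes are thus a description and no independent evidence on AP-1. Most of the genes on this list answer to NF-kB and other factors as well. Ptgs2, which encodes the inducible prostaglandin synthase COX-2, was 2399 ± 103 CPM with FcMR and 264 ± 25.8 CPM with isotype at 4 h (SD, n = 3), and its log2 difference was 3.18, 3.51 and 3.99 at 4, 12 and 24 h. Il23a, a subunit of IL-23, was higher at 4 h (log2 3.81, adjusted p = 8.86e-10) and, at 0.584 against 0.252 CPM, at 12 h (log2 1.41), and the cytokine gene Il1b at 4, 12 and 24 h (log2 2.57, 4.00 and 4.37). Plau, the urokinase gene, was lower at 4, 12 and 24 h (log2 −0.33, −1.02 and −1.73). Ccnd1, which encodes cyclin D1, was lower at 12 and 24 h (log2 −1.42 and −2.40), and the chemokine gene Ccl2 was higher at 4 h (log2 1.36) and lower at 24 h (log2 −1.94).

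**Figure D5:**
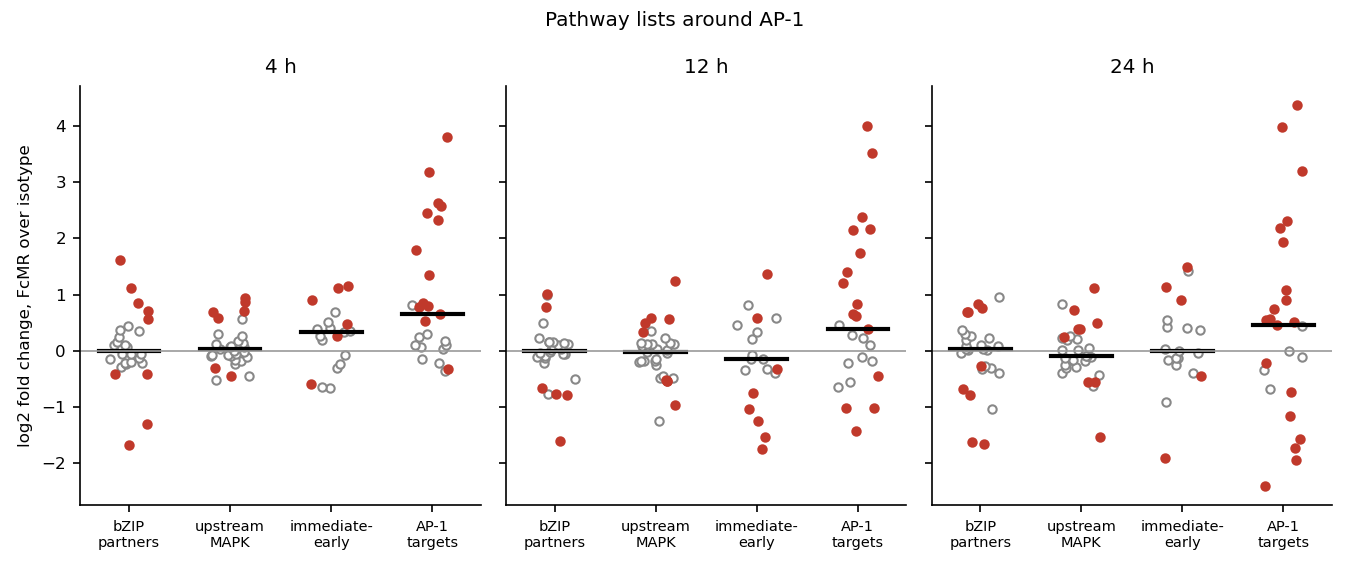
Log2 fold change of FcMR over isotype at 4, 12 and 24 h for each tested gene of the 4 lists around AP-1; filled points have an adjusted p under 0.05, open points do not, and the bar is the list's median. The medians of the other bZIP genes (labelled bZIP partners) and upstream genes lie near 0, and that of the AP-1 targets is 0.66, 0.40 and 0.45. The lists were chosen with earlier results of these data known.

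Genes whose log2 CPM followed each member most closely over the 21 libraries were taken from 8314 candidates by Pearson's r, as a description without a test, since the libraries share treatment, time, depth and GC tilt. For Fos these were Rassf8 (r = 0.949) and Galnt9 (r = 0.944), for Fosl2 Smarce1 (0.925) and Hif1a (0.91), for Atf3 Ppbp (0.923) and Gpsm2 (0.895), and for Batf St3gal3 (0.904) and Tagln2 (0.902). Fosb was most like Bhlhe40 (0.949) and Chst11 (0.944), and the low Fosl1 most like Zbtb22 (0.827) and Ddx27 (0.811). The highest values belonged to Junb, with Armc5 (0.985) and Dohh (0.978), while Jun followed Tfeb (0.967) and Mfsd12 (0.963) and Jund followed Gse1 (0.962) and Srsf4 (0.954). Transcript GC content was 56.8% to 63.2% for the 6 genes nearest to the Jun genes. It was 41.3% to 59.7% for those nearest to the other members, so the ranges overlap.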

How the data were processed

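RNA libraries (TruSeq kit v2 from 100 ng RNA, 75-base single-end reads on a HiSeq1500) were made by the authors, per the labels' protocols. The submitters' processing notes name CASAVA 1.8.2, kallisto 0.44.0, DESeq2 and the builds mm10 and GRCm38. The authors deposited a raw table of estimated counts per gene, all whole numbers, and a normalized table. In the deposited normalized signal each raw value is divided by a factor per gene and library; these factors served only as an alternative scaling. Genes in the table had at least 10 counts in sum. How strand was handled was not given in the sources used here.

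Genes were named from GENCODE M21, with versions matching for 21231 of 23250. edgeR 4.0.16 (R 4.3.3) was fitted to the 21 libraries with 1 coefficient per group, TMM scaling and filterByExpr at a minimum count of 10, and its quasi-likelihood test was adjusted by Benjamini-Hochberg over 13468 genes; a call is an adjusted p under 0.05. SE is the log2 fold change divided by the root of F. Levels are CPM after TMM scaling. For GC content, transcripts gave values for 99.8% of tested genes, the extreme 10% of genes at each end defined the tilt, and a spline with 5 degrees of freedom per library served as the correction. Alternatives were RLE scaling, DESeq2 1.42.0, limma 3.58.1 (log2 CPM with a prior count of 2), no filter on low counts or one on a gene's mean count (at least 10), the authors' factors, only the groups compared, the replicate number as a block, the GC correction, and leaving out libraries. No replicate pair agreed within sampling noise. The test code was checked on simulated data.

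The members, gene lists and tests were chosen with earlier results of these data known; the AP-1 and cyclic AMP motifs, the CArG box and the NF-kB site were listed beforehand and the TGACG half-site was added after the sequences had been seen. All 9 members are named. From each list, up to 2 called genes higher and 2 lower with the largest change are named per FcMR comparison (1 gene that this rule names is not reported here), and for each member the 2 genes with the highest r among genes of mean log2 CPM of at least 3.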

Additional observations from a re-analysis of the deposited data

Results flagged for a closer look

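For Fos, Fosl2 and Atf3 the FcMR difference itself changed between 4, 12 and 24 h, by a joint test of both changes in edgeR over all 21 libraries. The adjusted p was 0.0059 for Fos, whose FcMR libraries lay below isotype at each time and furthest below at 12 h. It was 0.00329 for Fosl2, whose FcMR libraries lay above isotype at each time and furthest above at 24 h. It was 0.00133 for Atf3, whose FcMR libraries lay above isotype at 4 h and below it at 12 and 24 h. Over 29 alternative fits, each of these 3 tests kept an adjusted p of at most 0.0201 for Fos, 0.0479 for Fosl2 and 0.00653 for Atf3.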

How the results depend on the processing

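Of 35 member values called in the main comparisons, 27 stayed called under every alternative run for them and none changed sign. Over all alternatives 599 of 631 such values stayed called, and 106 of 1791 member values changed sign without being called in either fit. The counts of called values include Fosb against untreated cells, which is not read as a test. The member counts for isotype against untreated given below include it too. The calls lost concern Fos and Fosl2 at 4 h, Fosl2 at 12 h, and Fosb, Junb, Jund and Batf in isotype comparisons. In edgeR with no filter on low counts, the median over all genes of FcMR against isotype at 4 h moved from −0.073 to 0.044, of isotype against untreated at 4 h from 0 to −0.125 and of isotype 12 h against 4 h from 0.007 to 0.116. Precision is limited by 3 libraries a group, by the wide spread of the Jun genes and by counts near 0 for Fosb. Unless a construction names it (fewer libraries or genes), the cause of a change was not tested.

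Members called between FcMR and isotype at 4 h numbered 2, and 4 with DESeq2, 5 with the GC correction, 4 with the GC correction and replicate block, and 4 without both libraries out of title order. Fitted in edgeR on only those groups the count was 0, with 3 at an unadjusted p under 0.05. For isotype against untreated at 4 h the count of 3 became 5, 6, 6 and 7 in the same order of DESeq2, GC correction, GC correction with block, and without both libraries. For FcMR 24 h against 12 h the count of 3 became 5, 5, 5 and 6, and for isotype 12 h against 4 h the last 3 fits gave 5, 5 and 6 in place of 3. For FcMR 12 h against 4 h, 7 in place of 4 were called without both libraries. For isotype 24 h against 12 h the count of 1 became 2 with DESeq2, with the replicate block, with the GC correction and with both of those, 5 with only those groups and 3 without both libraries.

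Over all genes, calls between FcMR and isotype at 4 h numbered 2390, and 791 with only those groups, 3941 with the GC correction, 4034 with GC correction and block, and 3942 without both libraries. At 12 h they went from 2169 to 3501 with the GC correction and 3689 with GC correction and block, and at 24 h from 2813 to 4243 with the latter. The joint test called 1484 genes, and 925 with no filter, 3099 with the GC correction, 3308 with GC correction and block, and 2620 without both libraries. With only the groups compared, isotype against untreated at 4 h went from 4792 to 2837, FcMR 24 h against 12 h from 3203 to 998, isotype 12 h against 4 h from 4737 to 2579 and isotype 24 h against 12 h from 2247 to 5875. Without both libraries the last 3 gave 5400, 7120 and 3838. Isotype 24 h against 12 h also gave 3669 with the GC correction and 3836 with GC correction and block, and FcMR 24 h against 12 h gave 4889 with the latter.

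Leaving out 1 library at a time, members called ranged from 3 to 7 for isotype against untreated at 4 h, from 3 to 5 for the same at 24 h, from 2 to 6 for isotype 12 h against 4 h and from 0 to 1 for isotype 24 h against 12 h (edgeR, with 2 at an unadjusted p under 0.05 where the count was 0). The 7 and the 6 came without isotype 4 h replicate 3, the 3 at 24 h without untreated replicate 1 or any isotype 24 h replicate, and the 0 without isotype 12 h replicate 2 or 3 or isotype 24 h replicate 1 or 2. Genes called ranged from 973 (without FcMR 4 h replicate 2) to 2322 (without isotype 4 h replicate 3) in the joint test, from 3132 (without isotype 4 h replicate 2) to 6755 for isotype 12 h against 4 h, from 1999 (without FcMR 12 h replicate 2) to 4350 for FcMR 24 h against 12 h, and from 1420 (without isotype 24 h replicate 1) to 1699 for isotype 24 h against 12 h.

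The direction of 2 values not called on all libraries without correction turned under settings that called them. Junb at 4 h was 1.94 without both libraries in place of −0.78, and Atf3 in isotype cells from 4 to 12 h was −0.186 with the GC correction (adjusted p = 0.0379) and −0.186 with GC correction and block (adjusted p = 0.0443) in place of 0.01. Fosl1 in the same comparison was called with both of these (−0.76 and −0.774; adjusted p = 0.0277 and 0.0218).

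Titles share replicate numbers across groups, and no label says that the numbers pair the samples. The mean correlation of same-numbered libraries' deviations was −0.071, 0.106 and 0.014 for FcMR and isotype at 4, 12 and 24 h. Single pairs ran from −0.355 to 0.442 over all comparisons, both in FcMR 24 h against 12 h. With 3 libraries a group, these values cannot decide whether the numbers mark pairs. With the number as a block, the members called differed by over 1.5 times only in isotype 24 h against 12 h (2 in place of 1). It added calls of Jun in isotype against untreated at 4 h (adjusted p = 0.0475) and of Junb from 12 to 24 h with FcMR (adjusted p = 0.0478) and with isotype (adjusted p = 0.0465), and lost none.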
